A study of Homo sapiens with 24 samples.

Results

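Epithelial and mesenchymal identity were described here through 10 genes that are commonly used to place a cell between these states. The mesenchymal genes were VIM, CDH2, FN1, TAGLN and SNAI2, and the epithelial genes were CDH1, EPCAM, KRT8, KRT18 and KRT19. They were chosen by name, and 9 of the 10 had a row among the 16591 genes of the expression table, 5 mesenchymal and 4 epithelial. CDH1 was not analysed here. The libraries were 24 stranded poly(A) RNA-seq libraries from 4 established human cancer cell lines, BT549 and MDAMB436 from breast and OVCAR8 and COV362 from ovary. Cells received DMSO, the vehicle, or 5 µM EPZ015666, which blocks the enzyme PRMT5, a methyltransferase that marks arginines. BT549 and OVCAR8 were taken at day 3 and at day 5, and MDAMB436 and COV362 at day 5, with 2 libraries (A and B) in each of the 12 groups. The labels name no genetic change and do not say whether A and B were separate cultures, so the p-values reflect library-to-library spread alone, and part or all of it may be technical.

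Epithelial cells are joined to their neighbours by junctions, express the adhesion molecule EPCAM and build their intermediate filaments from keratins. Mesenchymal cells build them from vimentin, use N-cadherin (CDH2) in place of E-cadherin (CDH1), and lay down fibronectin (FN1). In the epithelial-mesenchymal transition, a switch between these states that is much studied in carcinomas, zinc finger repressors such as SNAI2 bind E-box sequences in epithelial genes, and carcinoma cells often hold both sets of genes at once. TGF-beta is a well-known inducer of the switch, and the actin-binding protein transgelin (TAGLN) is one of the genes it induces in many cell types.

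Between 23757378 and 44944882 reads per library were recovered from the deposited values. Ribosomal RNA loci took a median of 0.289% of reads, but 4.54% in the OVCAR8 day 5 drug library B and 1.39% in the BT549 day 3 drug library A. Ovarian and Müllerian marker genes summed to as much as 79.4 RPKM in COV362 libraries, with SOX17, EMX2 and MUC16 detected, and to no more than 0.191 RPKM in OVCAR8. The breast line MDAMB436 held 4.22 to 4.7 RPKM of them, mostly EMX2 and SOX17, so these markers did not separate the lines by labelled tissue. Of the luminal breast marker list, 4 of 6 genes had a row. They summed to 17.9 to 20.7 RPKM in BT549 and to 18.9 to 19.4 RPKM in MDAMB436. These sums overlapped the 14.7 to 19.8 RPKM of the ovarian lines, and most of each was XBP1, at 12.1 to 18.4 RPKM. GATA3 did set BT549 apart, at 4.17 to 5.0 RPKM against no more than 0.599 in any other line. FOXA1 was at 1.32 to 1.96 RPKM in MDAMB436 and at no more than 0.0441 in BT549, but at 0.516 to 2.74 in the ovarian lines. The sum thus did not separate breast from ovary, and no luminal gene was high in both breast lines alone. Immune markers were represented by 1 gene, at no more than 0.35 RPKM, and endothelial markers summed to no more than 1.09 RPKM. Fibroblast markers, of which 4 of 5 genes had a row, were high in 2 lines: they summed to 69.6 to 105 RPKM in BT549, through COL1A1 and COL1A2, and to 51 to 59.7 in OVCAR8, mostly through COL1A1, against 5.73 to 10.8 in COV362 and 0.153 to 0.439 in MDAMB436.

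The genes differ in how their deposited values scale. RPKM, a read count scaled to library depth and to length in kilobases, had been divided by the whole gene span including introns, on GRCh38. Identifiers and positions are those of GENCODE release 29. VIM (ENSG00000026025) covers chr10:17228259-17237593 on the plus strand, TAGLN (ENSG00000149591) chr11:117199321-117204782 on the plus strand, and FN1 (ENSG00000115414) chr2:215360440-215436172 on the minus strand. CDH2 (ENSG00000170558) lies at chr18:27950966-28177446 on the minus strand, and SNAI2 (ENSG00000019549) at chr8:48917604-48921740 on the minus strand. Of the epithelial genes, EPCAM (ENSG00000119888) lies at chr2:47345158-47387601 on the plus strand and KRT19 (ENSG00000171345) at chr17:41523617-41528308 on the minus strand. KRT8 (ENSG00000170421, chr12:52897187-52949954, minus strand) and KRT18 (ENSG00000111057, chr12:52948871-52952901, plus strand) are neighbours whose annotated spans overlap by 1084 bases on opposite strands. The span was 1.7 times the principal transcript in SNAI2 and 52.3 times in CDH2, so an RPKM compares 1 gene between libraries, while levels of different genes were compared only after division by the transcript's length.

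In vehicle cultures at day 5 the lines did not fall on 1 epithelial to mesenchymal order. BT549 had the highest SNAI2 and TAGLN and next to no EPCAM, KRT8 or KRT19. COV362 had the highest KRT19 and EPCAM and, with them, the highest CDH2 and VIM. OVCAR8 had the highest KRT8, KRT18 and FN1 but almost no KRT19, and MDAMB436 had the lowest VIM and FN1.

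Among the mesenchymal genes, VIM, the intermediate filament of mesenchymal cells, had an RPKM of 122 and 119 in the BT549 vehicle libraries at day 5, 117 and 118 in OVCAR8, 135 and 131 in COV362, and 43.7 and 44.5 in MDAMB436. MDAMB436 stood below the other 3 lines, with 2.74-fold more VIM in BT549 (log2 difference 1.45, SE 0.045, adjusted p = 5.55e-10). BT549 and OVCAR8 did not differ beyond their spread (log2 difference 0.04, adjusted p = 0.463). VIM in COV362 was above both of them, by 0.14 on the log2 scale over BT549 (adjusted p = 0.0168) and by 0.18 over OVCAR8 (adjusted p = 0.00457). The first of these calls was lost without BT549 library B or COV362 library A (adjusted p up to 0.0895).

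SNAI2, the repressor also called SLUG, was at 13.2 and 12.6 RPKM in BT549, 1.99 and 1.52 in OVCAR8, 0.357 and 0.364 in MDAMB436, and 0.301 and 0.223 in COV362. TAGLN followed the same order of the first 2 lines, at 12.1 and 12.7 RPKM in BT549 and 2.62 and 3.12 in OVCAR8, and was at 0.505 and 0.577 in MDAMB436 and 0.519 and 0.571 in COV362. BT549 libraries were thus the high ones for both genes and overlapped no other line, at 49.1-fold the COV362 mean for SNAI2 (adjusted p = 6.39e-11) and 22.8-fold for TAGLN (adjusted p = 1.55e-10). MDAMB436 and COV362 overlapped for TAGLN (log2 difference -0.01, adjusted p = 0.947). For SNAI2 their difference (log2 0.36, adjusted p = 0.021) was lost without COV362 library B or either MDAMB436 library (adjusted p up to 0.186), with a pseudocount of 1 (0.181) and with limma-voom on recovered reads (0.102).

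FN1, the fibronectin of the extracellular matrix, was at 10.1 and 10.7 RPKM in OVCAR8, 4.9 and 4.97 in BT549, 1.63 and 1.76 in COV362, and 0.4 and 0.457 in MDAMB436. Every line was separated from the next for FN1, and OVCAR8 held 6.14-fold the COV362 mean (adjusted p = 5.49e-11). CDH2, the N-cadherin gene, was at 1.05 and 1.07 RPKM in COV362, 0.651 and 0.693 in MDAMB436, 0.589 and 0.617 in OVCAR8, and 0.347 and 0.327 in BT549. BT549, the line with the most SNAI2, was the low one for CDH2, at 0.318-fold the COV362 mean (adjusted p = 3.36e-10). The small gap between MDAMB436 and OVCAR8 in CDH2 (log2 0.13, adjusted p = 0.0122) was lost without OVCAR8 library A or MDAMB436 library B (adjusted p up to 0.0964) and with median-of-ratios scaling (0.0548).

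Among the epithelial genes, EPCAM had 1 and 0 reads in the 2 BT549 vehicle libraries at day 5, and 0 to 3 reads in each of the 8 BT549 libraries of either day. Its level was 0.0619 and 0.0627 RPKM in MDAMB436, 0.61 and 0.557 in OVCAR8, and 1.77 and 1.79 in COV362, an order in which no neighbours overlapped. KRT19, a small type I keratin of simple epithelia, was at 31.7 and 29.7 RPKM in COV362 and at 0.136 and 0.0975 in BT549. OVCAR8 had 4 and 0 reads of KRT19 in these libraries and MDAMB436 had 2 and 0, close to the limit that a count of 0 allows (3 reads, or 0.0264 and 0.0224 RPKM at the shallower library), and these 2 lines overlapped. KRT19 was thus high in COV362 and low in the other 3 lines, with COV362 above BT549 by 7.16 on the log2(RPKM + 0.1) scale (adjusted p = 4.81e-11).

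KRT8 and KRT18, whose proteins pair to form the filaments of simple epithelia, rose from line to line in 1 shared order. KRT8 was at 0.0356 and 0.0418 RPKM in BT549, 1.13 and 1.1 in MDAMB436, 15.2 and 15.0 in COV362, and 25.7 and 26.1 in OVCAR8. For KRT18 the values were 8.32 and 7.52 RPKM in BT549, 53.1 and 49.7 in MDAMB436, 93.4 and 87.6 in COV362, and 182 and 185 in OVCAR8. No neighbours in this order overlapped for either gene. The gap between the lines was wider for KRT8, which in BT549 was at 0.00149-fold its OVCAR8 mean (adjusted p = 5.08e-16), against 0.0432-fold for KRT18 (adjusted p = 7.68e-12).

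**Figure D1:**
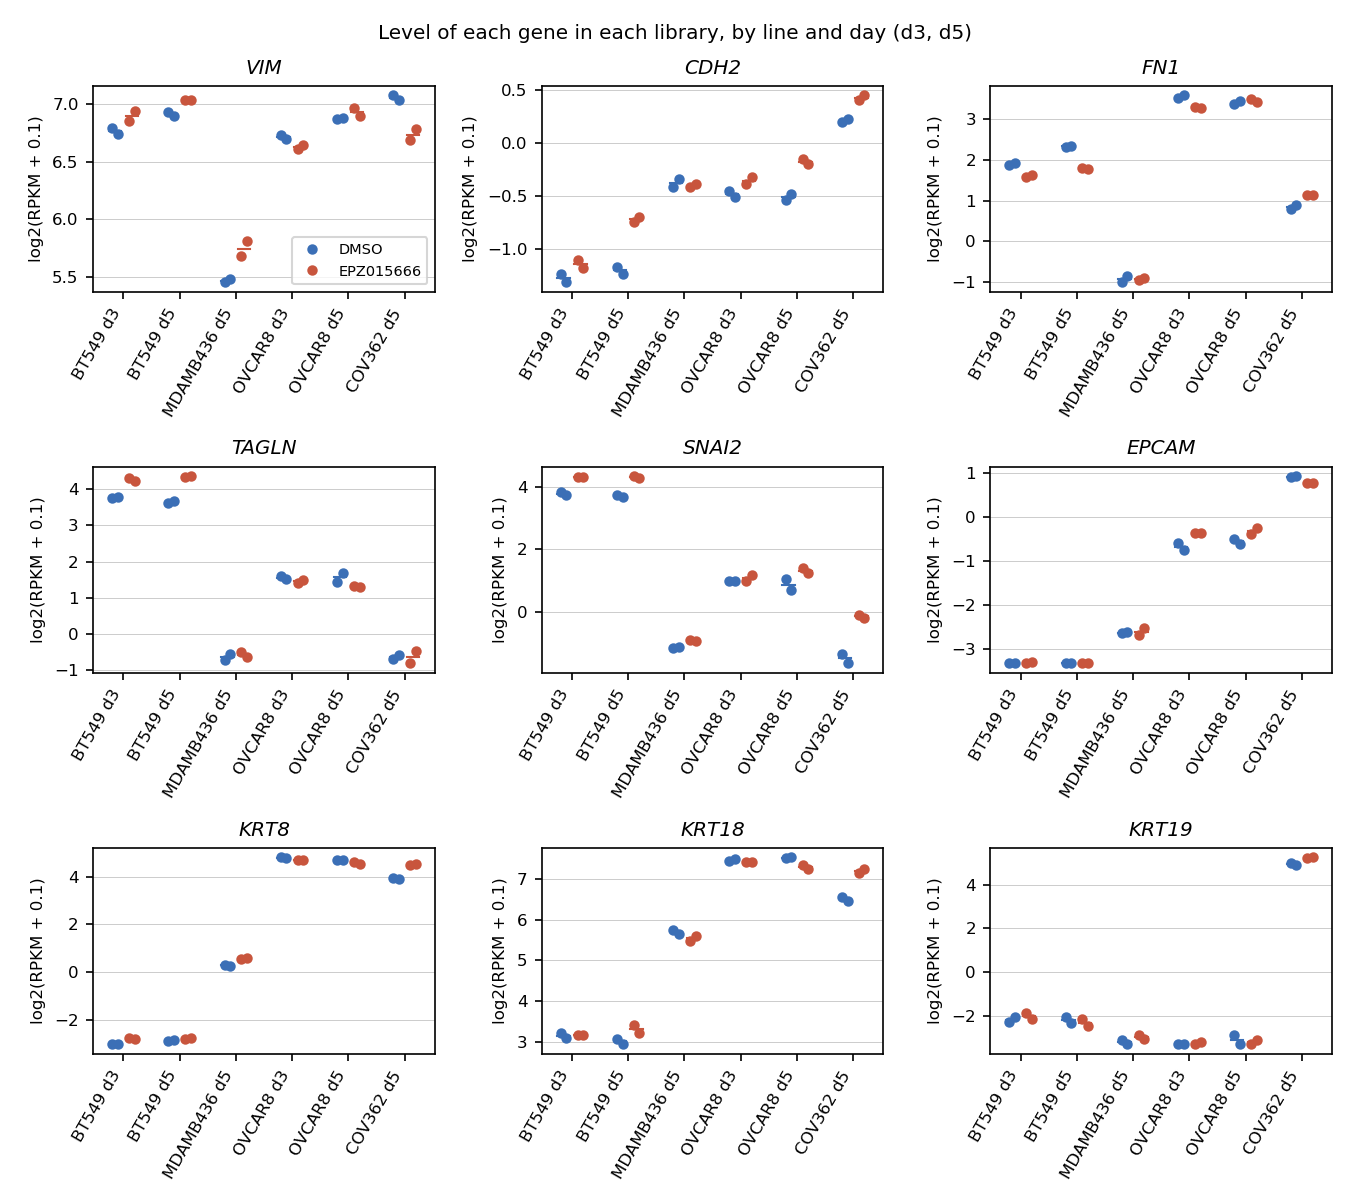
The 9 panels plot log2(RPKM + 0.1) of each gene in every library (points; blue for DMSO, red for EPZ015666), with the mean of each group of 2 libraries as a short line, by cell line and day. SNAI2 and TAGLN are high in BT549, KRT19 is high in COV362 and near the floor elsewhere, and KRT8 and KRT18 climb from BT549 to OVCAR8.

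Counted over the 9 genes, all 9 differed between BT549 and MDAMB436, where 78.7% of all genes tested differed. The same held between BT549 and COV362 (9 of 9, against 78.5% of all genes) and between OVCAR8 and COV362 (9 of 9, against 78.7%). All genes but VIM differed between BT549 and OVCAR8 (8 of 9, against 77.7%), all but KRT19 between MDAMB436 and OVCAR8 (8 of 9, against 80.4%), and all but TAGLN between MDAMB436 and COV362 (8 of 9, against 77.3%). These shares were near the background, because most genes differed between lines, and the sizes above carry the description.

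Divided by the length of the principal transcript, VIM had the highest level of the 9 genes in BT549 (494 ± 8.4 depth-scaled reads per kilobase of transcript, SD, n = 2), MDAMB436 (200 ± 2.17) and COV362 (589 ± 12.4). In OVCAR8 the highest was KRT8, at 651 ± 4.36, followed by VIM at 520 ± 1.71 and KRT18 at 480 ± 3.83. Vimentin and simple keratins were thus both abundant in OVCAR8, and in COV362 KRT8 stood at 381 ± 5.13 and KRT18 at 237 ± 11.4 beside VIM. The OVCAR8 order depended on the length used: with all exons joined, KRT18 came first at 233 ± 1.86, then VIM at 215 ± 0.708 and KRT8 at 201 ± 1.35. In bulk libraries a lower level in every cell and fewer cells at a high level cannot be told apart, so these values do not say whether 1 cell holds both filaments.

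**Figure D2:**
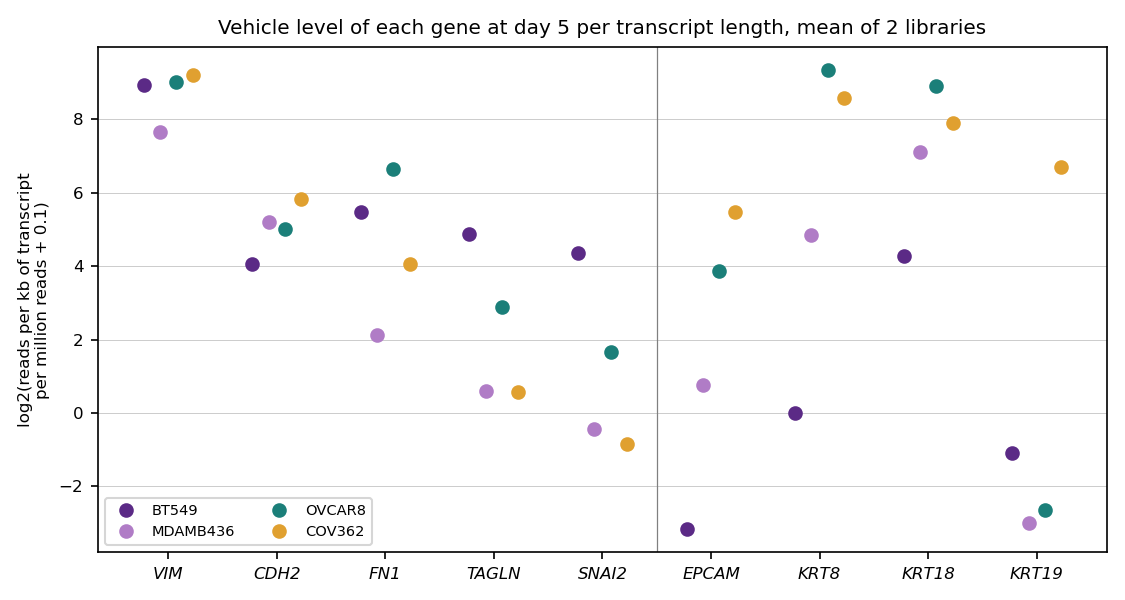
The plot gives log2(reads per kb of principal transcript scaled to depth, + 0.1) of the 9 genes in vehicle libraries at day 5, each point the mean of 2 libraries and coloured by line, with mesenchymal genes left of the vertical line. VIM is high in all 4 lines, and the lines spread widest for KRT8, KRT19 and EPCAM.

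More of the 9 genes passed the test under EPZ015666 in COV362 than elsewhere, and no gene passed in the same direction in all 4 lines. SNAI2 had the only 3-fold change, in COV362, and it also rose in BT549 and OVCAR8. KRT8 and KRT18 rose in COV362 and fell in OVCAR8 at day 5. FN1 fell in BT549 and rose in COV362, while CDH2 rose in BT549, OVCAR8 and COV362. In the test, limma on log2(RPKM + 0.1) with p-values adjusted over all genes tested, 5 of 7 genes tested passed an adjusted p of 0.05 in BT549 at day 5 (4 higher, 1 lower), where 30.2% of all genes did. In COV362 the count was 8 of 9 (6 higher, 2 lower), against 53.9% of all genes, in OVCAR8 at day 5 it was 4 of 8 (2 higher, 2 lower), against 43.2%, and in MDAMB436 2 of 7, both higher, against 23.6%. At day 3 it was 3 of 7 in BT549 (2 higher, 1 lower), against 12.7%, and 2 of 8 in OVCAR8 (1 higher, 1 lower), against 25.6%. Without any of its 4 libraries COV362 gave 5 calls. OVCAR8 at day 5 gave 2 calls without the day 5 vehicle or drug library B, and OVCAR8 at day 3 gave 0 without the day 3 vehicle or drug library B (limma, with 2 at an unadjusted p under 0.05 in each) and 1 without the other day 3 libraries or a day 5 vehicle library. In MDAMB436 leaving out any library gave 0 (limma, with 1 to 3 at an unadjusted p under 0.05). The OVCAR8 and MDAMB436 shares lay near or below their backgrounds. The fits of MDAMB436 and COV362 held 4 libraries, and those of BT549 and OVCAR8 held 8. In simulated libraries, with 200 changed genes and a replicate spread of 0.1 log2, the test found 3.09% of 1.5-fold changes in MDAMB436 and 7.22% in COV362. It found 40.6% to 53.5% of them in BT549 and OVCAR8. Far more genes passed in the real libraries, so these shares do not give the power of the test on them. With fits of unlike size, the counts do not rank the drug effect between lines. EPCAM and KRT8 in BT549, EPCAM and KRT19 in MDAMB436 and KRT19 in OVCAR8 were not tested, because their mean was under 0.1 RPKM there.

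SNAI2 was 0.301 and 0.223 RPKM in COV362 vehicle libraries (40 and 42 reads) and 0.84 and 0.782 under EPZ015666 (112 and 110 reads). Both drug libraries were above both vehicle libraries, by 3.09-fold in RPKM and by 1.34 on the log2 scale (SE 0.13, adjusted p = 0.00475). The treated COV362 level nevertheless remained below that of vehicle OVCAR8 and BT549. In BT549 at day 5 SNAI2 went from 13.2 and 12.6 RPKM to 20.0 and 19.2, and at day 3 from 14 and 13.2 to 19.7 and 19.7. The groups did not overlap on either day, with log2 changes of 0.60 (SE 0.047, adjusted p = 0.000923) and 0.53 (SE 0.047, adjusted p = 0.00407). These 3 calls held without any 1 library.

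In OVCAR8 SNAI2 rose less clearly, from 1.99 and 1.52 RPKM to 2.54 and 2.27 at day 5 (log2 0.44, SE 0.13, adjusted p = 0.0441). The 2 groups did not overlap, but the call was lost without 7 of the 8 OVCAR8 libraries in turn, all but the day 5 vehicle library A (adjusted p up to 0.175), and with no filter on low values (0.0569). At day 3 OVCAR8 values of 1.91 and 1.91 in vehicle and 1.91 and 2.18 under EPZ015666 touched (log2 0.09, adjusted p = 0.66). In MDAMB436 SNAI2 was 0.357 and 0.364 RPKM in vehicle and 0.438 and 0.433 under EPZ015666, without overlap, and missed the threshold (log2 0.22, 95% interval 0.07 to 0.36, adjusted p = 0.0567).

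TAGLN rose under EPZ015666 in BT549, the line where it was already highest. Its RPKM went from 12.1 and 12.7 to 20.1 and 20.3 at day 5, and from 13.4 and 13.6 to 19.5 and 18.7 at day 3. Drug and vehicle libraries did not overlap on either day, with log2 changes of 0.70 (SE 0.042, adjusted p = 0.000457) and 0.50 (SE 0.042, adjusted p = 0.00394), and both calls held without any 1 library. In OVCAR8 at day 5 TAGLN was 2.62 and 3.12 RPKM in vehicle and 2.43 and 2.34 under EPZ015666, a log2 change of -0.25 that missed the threshold (95% interval -0.47 to -0.04, adjusted p = 0.0616). The OVCAR8 change passed with a mean of at least 1 RPKM (adjusted p = 0.041) and with limma-voom (0.0386). In COV362 the values of 0.519 and 0.571 in vehicle lay between the drug libraries, at 0.471 and 0.624, so no direction could be read (95% interval -0.41 to 0.41, adjusted p = 0.99).

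FN1 in BT549 was 4.9 and 4.97 RPKM in vehicle at day 5 and 3.4 and 3.29 under EPZ015666. At day 3 it was 3.53 and 3.69 in vehicle and 2.88 and 2.96 under EPZ015666. The drug libraries were the low ones on both days, and FN1 fell by 0.55 on the log2 scale at day 5 (SE 0.042, adjusted p = 0.000882) and by 0.30 at day 3 (SE 0.042, adjusted p = 0.0126). The day 3 call was lost without either day 3 drug library (adjusted p up to 0.0534), and library A of these was 1 of the libraries with much ribosomal RNA. Vehicle FN1 in BT549 itself rose from day 3 to day 5 by 0.44 on the log2 scale (adjusted p = 0.0108), and this was the only call among the 7 genes tested for vehicle day 5 against day 3, where 8.77% of all genes passed. That call was lost without either day 5 vehicle library (adjusted p up to 0.0945).

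Elsewhere FN1 moved otherwise. COV362 libraries went from 1.63 and 1.76 RPKM to 2.11 and 2.1, a rise without overlap (log2 0.30, SE 0.048, adjusted p = 0.0146) that was lost without either drug library (adjusted p up to 0.0705). In OVCAR8 at day 3 FN1 fell from 11.3 and 11.8 RPKM to 9.67 and 9.47 (log2 -0.27, SE 0.046, adjusted p = 0.0123), a call lost without the day 3 vehicle or drug library B (adjusted p up to 0.0694). By day 5 OVCAR8 drug libraries, at 11.1 and 10.6, overlapped vehicle at 10.1 and 10.7 (adjusted p = 0.354).

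The bases upstream of FN1 are shown because FN1 fell in BT549 and rose in COV362, and this promoter is known for a cyclic AMP response element. The changes did not divide by tissue. FN1 also fell in the ovarian line OVCAR8 at day 3, and it did not change by the test in the breast line MDAMB436 (log2 0.01, adjusted p = 0.936). The sequence is the RefSeq reference (GRCh38.p14), 146 bases of the minus strand at chr2:215436173-215436318, ending where the annotated gene begins, with the palindrome TGACGTCA in capitals.
FN1 upstream: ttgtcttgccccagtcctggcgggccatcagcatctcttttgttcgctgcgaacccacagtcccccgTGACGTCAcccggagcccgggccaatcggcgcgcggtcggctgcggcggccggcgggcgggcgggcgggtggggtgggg
The palindrome lies 176 to 183 bases upstream of the RefSeq start, and 1.85% of 35116 RefSeq promoter windows of 300 bases hold it on either strand. CAGGTG, an E-box that SNAI2 can bind, was searched on both strands in the RefSeq windows of FN1, VIM, CDH2 and KRT8, and it was in none of these, against 20.6% of all windows. This says only that those letters are not in these windows, and no binding was measured. EPCAM, KRT18, KRT19 and TAGLN had no window to search, SNAI2 was not searched, and the KRT8 window lies inside the annotated KRT8 span. The search therefore says little about the epithelial genes.

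CDH2 rose under EPZ015666 in 3 lines at day 5. In BT549 it went from 0.347 and 0.327 RPKM to 0.499 and 0.52 (log2 0.48, SE 0.062, adjusted p = 0.00407). OVCAR8 libraries went from 0.589 and 0.617 to 0.805 and 0.772 (log2 0.34, SE 0.047, adjusted p = 0.0035), and both of these calls held without any 1 library. COV362 libraries went from 1.05 and 1.07 to 1.23 and 1.27 (log2 0.22, SE 0.036, adjusted p = 0.015), a call lost without any of its 4 libraries (adjusted p up to 0.0856). Drug libraries were above vehicle in all 3 lines without overlap, whereas MDAMB436 values of 0.651 and 0.693 in vehicle enclosed those of 0.654 and 0.665 under EPZ015666 (log2 95% interval -0.17 to 0.12). At day 3 the CDH2 changes were 0.13 in BT549 (adjusted p = 0.212) and 0.12 in OVCAR8 (adjusted p = 0.115, and 0.00624 with limma-voom) on the log2 scale.

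VIM passed the drug test in COV362 and MDAMB436. COV362 libraries fell from 135 and 131 RPKM to 103 and 110, with no overlap (log2 -0.32, SE 0.042, adjusted p = 0.00907), which was lost without either vehicle library (adjusted p up to 0.0645). MDAMB436 libraries went up from 43.7 and 44.5 to 51.2 and 56.1 (log2 0.28, SE 0.056, adjusted p = 0.0429). In BT549 the day 5 values of 122 and 119 in vehicle and 131 and 131 under EPZ015666 gave a log2 change of 0.12 (95% interval 0.02 to 0.23, adjusted p = 0.082), which passed with limma-voom (0.20, adjusted p = 0.00281). The OVCAR8 change at day 5 was 0.06 (95% interval -0.02 to 0.14, adjusted p = 0.201), which passed with median-of-ratios scaling (0.12, adjusted p = 0.026). Vehicle VIM in OVCAR8 rose from day 3 to day 5, from 106 and 104 to 117 and 118 RPKM (log2 0.16, adjusted p = 0.0219), the only call among 8 genes tested there, against 23.4% of all genes. Leaving out any of those 4 vehicle libraries ended it (adjusted p up to 0.112).

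**Figure D3:**
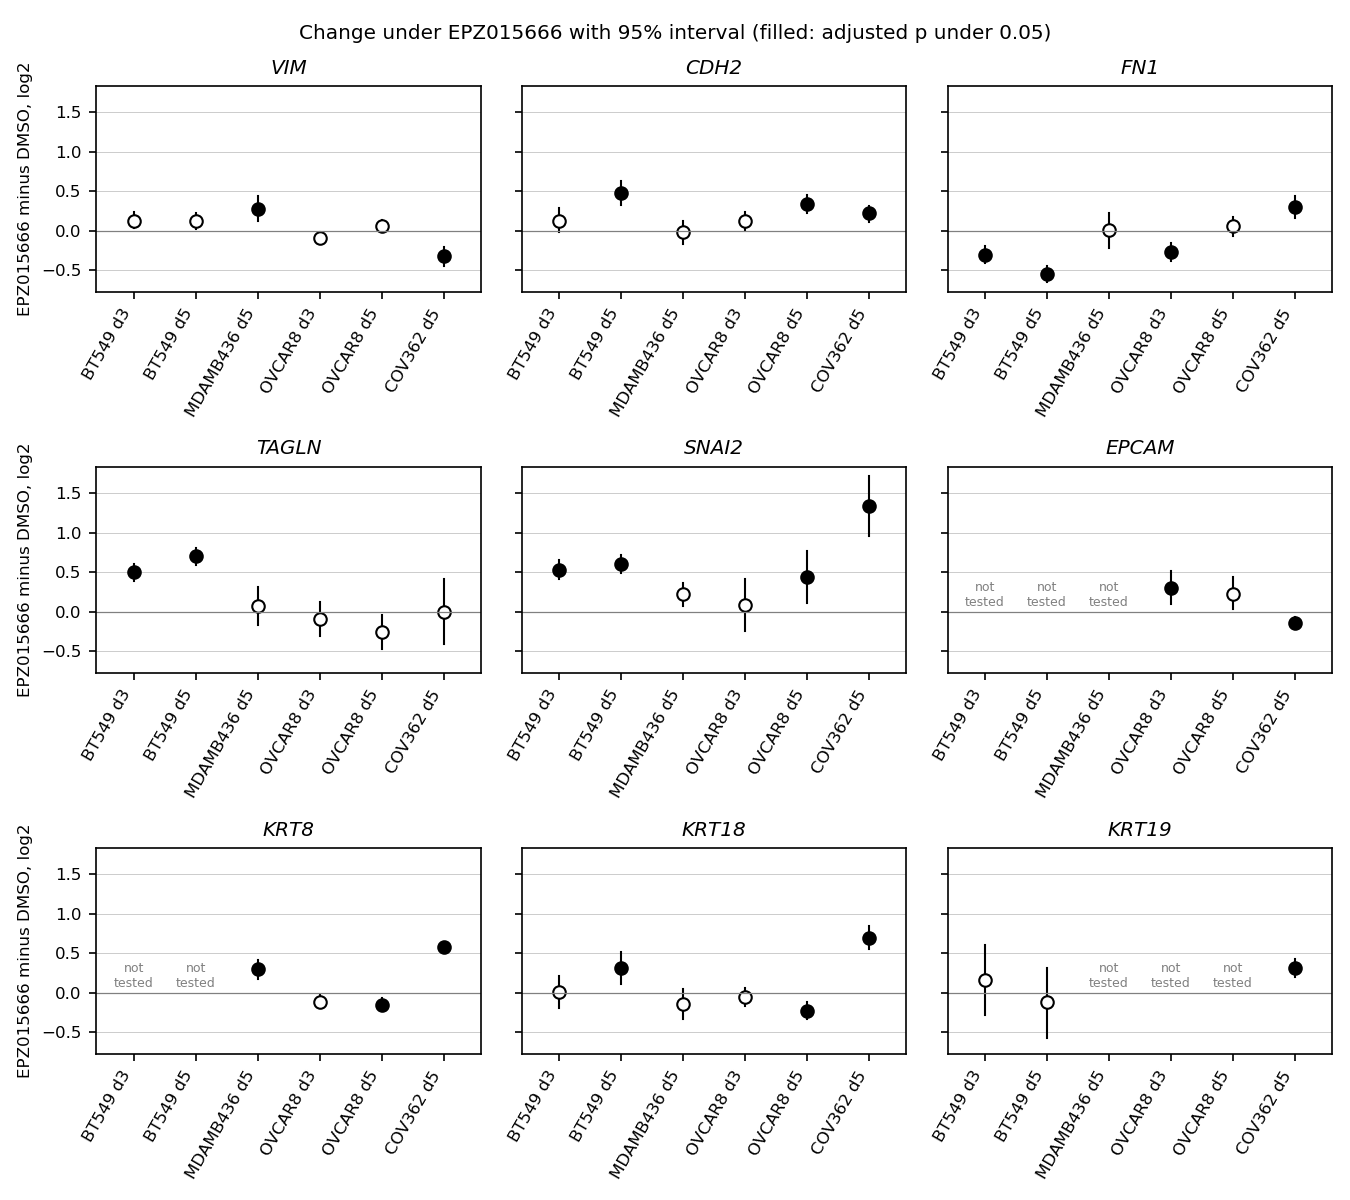
Each panel gives the log2 change of 1 gene, EPZ015666 minus DMSO on log2(RPKM + 0.1), in the 6 drug comparisons, with its 95% interval and filled points where the adjusted p was under 0.05. SNAI2 points lie above 0 throughout, from 0.09 in OVCAR8 at day 3 to 1.34 in COV362, and KRT8 and KRT18 lie above 0 in COV362 and below it in OVCAR8.

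KRT8, KRT18 and KRT19 rose in COV362, and KRT8 and KRT18 fell in OVCAR8 at day 5. KRT18 in COV362 went from 93.4 and 87.6 RPKM to 142 and 151 under EPZ015666, and KRT8 from 15.2 and 15.0 to 22.4 and 22.8. Drug libraries lay above vehicle for both genes, with log2 changes of 0.69 (SE 0.051, adjusted p = 0.00301) and 0.58 (SE 0.023, adjusted p = 0.00162). KRT19 went from 31.7 and 29.7 to 38.1 and 38.3 (log2 0.31, SE 0.039, adjusted p = 0.00816), also without overlap. All 3 keratin calls in COV362 held without any 1 library.

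In OVCAR8 at day 5 KRT18 fell from 182 and 185 RPKM to 163 and 151 (log2 -0.23, SE 0.043, adjusted p = 0.00951), and this held without any 1 library, the one with 4.54% ribosomal reads included. KRT8 fell from 25.7 and 26.1 to 24.0 and 22.8 (log2 -0.15, SE 0.031, adjusted p = 0.0144). The KRT8 call was lost without the day 5 vehicle library B or that ribosomal-rich drug library B (adjusted p up to 0.0634), and with median-of-ratios scaling (adjusted p = 0.0734). Without the ribosomal-rich library 2 of the 4 genes still passed in OVCAR8 at day 5, and the part of ribosomal reads in the others was not tested. At day 3 KRT8 in OVCAR8 was 27.8 and 27.4 in vehicle and 25.7 and 25.4 under EPZ015666 (log2 -0.11, adjusted p = 0.0562), and KRT18 was 174 and 180 against 171 and 172 (log2 -0.05, adjusted p = 0.424).

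In the breast lines the keratins were lower and less clear. KRT18 in BT549 went from 8.32 and 7.52 RPKM to 10.5 and 9.23 at day 5 (log2 0.31, SE 0.082, adjusted p = 0.0368). These groups did not overlap, yet the call was lost without 5 of the 8 BT549 libraries in turn, namely both day 5 vehicle libraries, the day 5 drug library A and both day 3 drug libraries (adjusted p up to 0.17). KRT8 in BT549 had 32 and 32 reads in vehicle and 65 and 65 under EPZ015666 at day 3, and 47 and 53 against 58 and 65 at day 5, too low a level for the test. MDAMB436 libraries went from 1.13 and 1.1 RPKM of KRT8 to 1.38 and 1.4 (log2 0.30, SE 0.039, adjusted p = 0.0229), while KRT18 at 53.1 and 49.7 in vehicle and 44.5 and 48.7 under EPZ015666 did not pass (log2 -0.14, 95% interval -0.33 to 0.05, adjusted p = 0.193).

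The MDAMB436 calls of VIM and KRT8 rested on all 4 libraries: without any 1 of them neither passed (adjusted p up to 0.154 for VIM and up to 0.151 for KRT8), and no gene of the table did by limma, although between 3314 and 4686 genes had an unadjusted p under 0.05. With no filter on low values the VIM call was also lost (adjusted p = 0.0611).

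EPCAM passed in 2 comparisons, in opposite directions. COV362 libraries went from 1.77 and 1.79 RPKM to 1.6 and 1.61 (log2 -0.14, SE 0.028, adjusted p = 0.0221). OVCAR8 libraries at day 3 went from 0.564 and 0.49 to 0.675 and 0.672 (log2 0.30, SE 0.081, adjusted p = 0.0451), and at day 5 from 0.61 and 0.557 to 0.663 and 0.744, which missed the threshold (log2 0.23, 95% interval 0.03 to 0.44, adjusted p = 0.0665) but passed with median-of-ratios scaling (0.032) and limma-voom (0.00154). Vehicle and drug libraries did not overlap in any of these 3 comparisons. Both EPCAM calls were lost without any 1 library of their fit (adjusted p up to 0.11 in COV362 and up to 0.176 in OVCAR8), and the OVCAR8 call with no filter on low values (0.0588).

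KRT8 and KRT18 have many processed copies in the genome, of which 17 copies of KRT8 and KRT18 had rows. The closest in letters was KRT8P45, 95.1% identical to a KRT8 transcript over 1453 aligned bases, and the most abundant was KRT8P10, 91.5% identical, at up to 26.5 RPKM. How reads were split between a keratin and its copies is not given in the sources used here, so the keratin values are uncertain to that extent. KRT8P10 moved as KRT8 did, with log2 changes of 0.68 in COV362 (adjusted p = 0.00163) and -0.41 in OVCAR8 at day 5 (adjusted p = 0.0139). KRT8P12, 86% identical, rose in 5 of the 6 comparisons, from 2.18 to 4.5 RPKM in COV362 and from 2.37 to 4.06 in BT549 at day 5, where KRT8 itself was below 0.05 RPKM. It overlaps KPNA4 on the opposite strand, and KPNA4 has a row of its own. In all, 5 of 11 tested copies rose in COV362 and 2 of 13 rose and 2 fell in OVCAR8 at day 5, with medians of 0.656 and -0.136 on the log2 scale, beside 0.0056 and -0.0046 over all genes. These shares, 45.5% and 30.8%, lay below the 53.9% and 43.2% of all genes.

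The drug effect differed between the lines for most of these genes. By the F test over the 4 lines at day 5, it differed for 8 of the 9 genes, all but KRT19, where 63.3% of all genes passed. The adjusted p was 1.11e-05 for KRT8, 9.76e-05 for FN1, 0.000204 for VIM, 0.000217 for KRT18, 0.000338 for CDH2, 0.00158 for SNAI2, 0.00314 for TAGLN and 0.0251 for EPCAM. EPCAM and KRT8 hold lines with a level near 0 in this fit. With limma-voom on recovered reads their calls were lost (adjusted p = 0.703 for EPCAM and 0.163 for KRT8), and EPCAM was also lost without OVCAR8 vehicle or drug library B or any COV362 library (adjusted p up to 0.0856). KRT19, expressed in COV362 only at a level above 1 RPKM, had an adjusted p of 0.218, and of 0.000481 with a pseudocount of 1. At day 3 the effect differed between BT549 and OVCAR8 for 3 of 8 genes tested, against 8.86% of all genes. These were TAGLN (BT549 minus OVCAR8, log2 0.59, adjusted p = 0.00682), VIM (log2 0.22, adjusted p = 0.0287) and KRT8 (log2 0.33, adjusted p = 0.00483). KRT8 entered this fit through OVCAR8, and in BT549 at day 3 it was at 0.0247 RPKM in vehicle and 0.0456 under EPZ015666, below the filter of 0.1, so its value follows the pseudocount: it was 0.13 with a pseudocount of 1 (adjusted p = 0.0353) and 0.95 with limma-voom (0.0298). The VIM call was lost without any OVCAR8 day 3 library or the BT549 day 3 vehicle or drug library B (adjusted p up to 0.0952), and with limma-voom (0.0644).

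Whether the effect grew between the days was less clear. None of 7 genes passed in BT549, where 0.819% of all genes did, and none of 8 in OVCAR8, where 0.937% did. At an unadjusted p under 0.05 in limma the counts were 4 and 4, and limma-voom on recovered reads called 3 and 2. The shares of all genes above belong to the adjusted main test and are no background for these counts. Limma-voom also called many more of all genes, as given in the closing section. The differences with the lowest p were FN1 in BT549 (day 5 minus day 3, log2 -0.25, adjusted p = 0.101), CDH2 in BT549 (log2 0.35, adjusted p = 0.109) and FN1 in OVCAR8 (log2 0.33, adjusted p = 0.0683).

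Other genes of the same programmes, taken from lists drawn up for this description, gave context. Their shares past the threshold stand beside those over all genes, which were 53.9% in COV362, 43.2% in OVCAR8 at day 5, 30.2% in BT549 at day 5 and 23.6% in MDAMB436. Of 8 transcription factors of the transition tested in COV362, SNAI2 included, 3 rose and the other 5 did not pass (37.5% past the threshold, below the 53.9% of all genes). The others that rose there were SNAI1 (from 0.846 to 1.32 RPKM, adjusted p = 0.0457) and FOXC2 (3.29 to 4.81, adjusted p = 0.0108). Neither of these calls was checked by leaving out libraries. Of 9 tested in BT549 at day 5, SNAI2 rose, TWIST1 fell (2.13 to 1.52 RPKM, adjusted p = 0.00706) and the other 7 did not pass (22.2%, against 30.2%). In OVCAR8 at day 5, 2 rose and 3 fell of 8 (62.5%, against 43.2%). SNAI1 was among those that fell in OVCAR8 (1.72 to 1.05 RPKM, adjusted p = 0.00571). SNAI2 was among those that rose there, by a call that was lost without 7 of the 8 OVCAR8 libraries in turn. In MDAMB436, 1 rose and 2 fell of 9 (33.3%, against 23.6%). List medians were 0.0625, 0.0763, -0.0479 and -0.00493 on the log2 scale in these 4 comparisons, beside 0.0056, -0.0027, -0.0046 and 0.0021 over all genes.

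The other keratins that passed rose in COV362 and fell in OVCAR8. In COV362, 5 of 8 rose and the other 3 did not pass, with a list median of 0.563; the share of 62.5% was near the 53.9% of all genes. KRT7, another simple-epithelial keratin, went from 34.9 to 57.0 RPKM there (adjusted p = 0.0013). KRT14 and KRT6A, keratins of stratified epithelia with close paralogs among which reads may be split, went from 0.0876 to 0.328 and from 0.0416 to 0.574 RPKM. In OVCAR8 at day 5, 3 of 4 fell and 1 did not pass (75% against 43.2% of all genes, on 4 genes), with a median of -0.714. KRT17 fell there from 9.53 to 2.86 RPKM (adjusted p = 0.000273) and KRT7 from 21.6 to 17.1 (adjusted p = 0.00122). The vehicle level of these 4 genes in OVCAR8 also moved with time. From day 3 to day 5, 2 rose and 1 fell (median 0.635, 75% against 23.4% of all genes).

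Epithelial junction genes were mixed: in OVCAR8 at day 5, 11 of 19 rose and 3 fell (median 0.238, 73.7% past the threshold against 43.2% of all genes), and in COV362, 7 of 22 rose and 9 fell (median -0.0183, 72.7% against 53.9%). Of 12 in BT549 at that day, 1 went up and 5 went down (median -0.101, 50% against 30.2%), and in MDAMB436, 3 rose and 3 fell of 15 (median -0.122, 40% against 23.6%). CLDN1, a tight-junction claudin, rose in all 6 drug comparisons, that in MDAMB436 with all 4 libraries only (adjusted p = 0.042), and most in OVCAR8 at day 5 (from 0.494 to 2.35 RPKM, adjusted p = 9.63e-05). DSP, the desmosomal plaque protein desmoplakin, rose with the keratins in COV362, from 7.48 to 12.3 RPKM (adjusted p = 0.00355), and did not pass in OVCAR8 at day 5 (log2 0.06, adjusted p = 0.339). Of the epithelial regulators, 3 rose and 2 fell of 6 in COV362 (83.3% against 53.9%), and the splicing factor ESRP2 fell there (1.3 to 0.888 RPKM, adjusted p = 0.0101). In OVCAR8 at day 5 ESRP2 also fell (1.55 to 0.858 RPKM, adjusted p = 0.00096). It was the only 1 of 4 regulators past the threshold there (25% against 43.2%), and the list median was 0.11. Epithelial surface genes gave 3 up and 3 down of 12 in COV362 (50% against 53.9%), where the mucin MUC1 fell from 50.4 to 16.4 RPKM (adjusted p = 0.00133), and 1 up and 3 down of 7 in OVCAR8 at day 5 (57.1% against 43.2%).

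Among other mesenchymal genes, 11 of 17 rose and 1 fell in COV362 (median 0.216), 70.6% past the threshold against 53.9% of all genes. Of 18 in BT549 at day 5, 2 went up and 10 went down (median -0.304), 66.7% against 30.2%. Fibroblast markers, of which PDGFRB and LUM are also in this list, summed to 104 and 105 RPKM in BT549 vehicle at day 5. Under EPZ015666 they summed to 70.8 and 69.6 there. Vehicle sums of 10.8 and 10.2 stood against 5.73 and 5.76 in COV362, and 0.439 and 0.421 against 0.172 and 0.153 in MDAMB436. OVCAR8 at day 5 went the other way, from 51.0 and 53.5 to 57.3 and 55.9. In BT549 and COV362 PDGFRB was at no more than 0.0711 RPKM and LUM at no more than 0.0308. Both were under the filter of 0.1 RPKM, so neither was in these counts. COL1A1 and COL1A2, which made up most of the sums, are not in this list. A link between the sums and the counts was not tested. In BT549 at day 5 the matrix protein gene SPARC fell with FN1, from 84.4 to 55.6 RPKM (adjusted p = 0.000764). NT5E, the ectonucleotidase CD73, rose in the same BT549 libraries from 1.62 to 4.45 RPKM (adjusted p = 0.000168). TAGLN and SNAI2 thus rose in BT549 libraries where most of the listed mesenchymal genes that passed fell. In OVCAR8 at day 5, 6 rose and 5 fell of 17 (median -0.0784, 64.7% against 43.2%), and in MDAMB436, 4 rose and 1 fell of 14 (median 0.0287, 35.7% against 23.6%).

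TGF-beta ligands, receptors and SMADs gave 4 up and 5 down of 18 in COV362 (50% against 53.9% of all genes), 4 and 4 of 18 in BT549 at day 5 (44.4% against 30.2%), 5 and 3 of 15 in OVCAR8 at day 5 (53.3% against 43.2%), and 0 and 2 of 14 in MDAMB436 (14.3% against 23.6%).

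**Figure D4:**
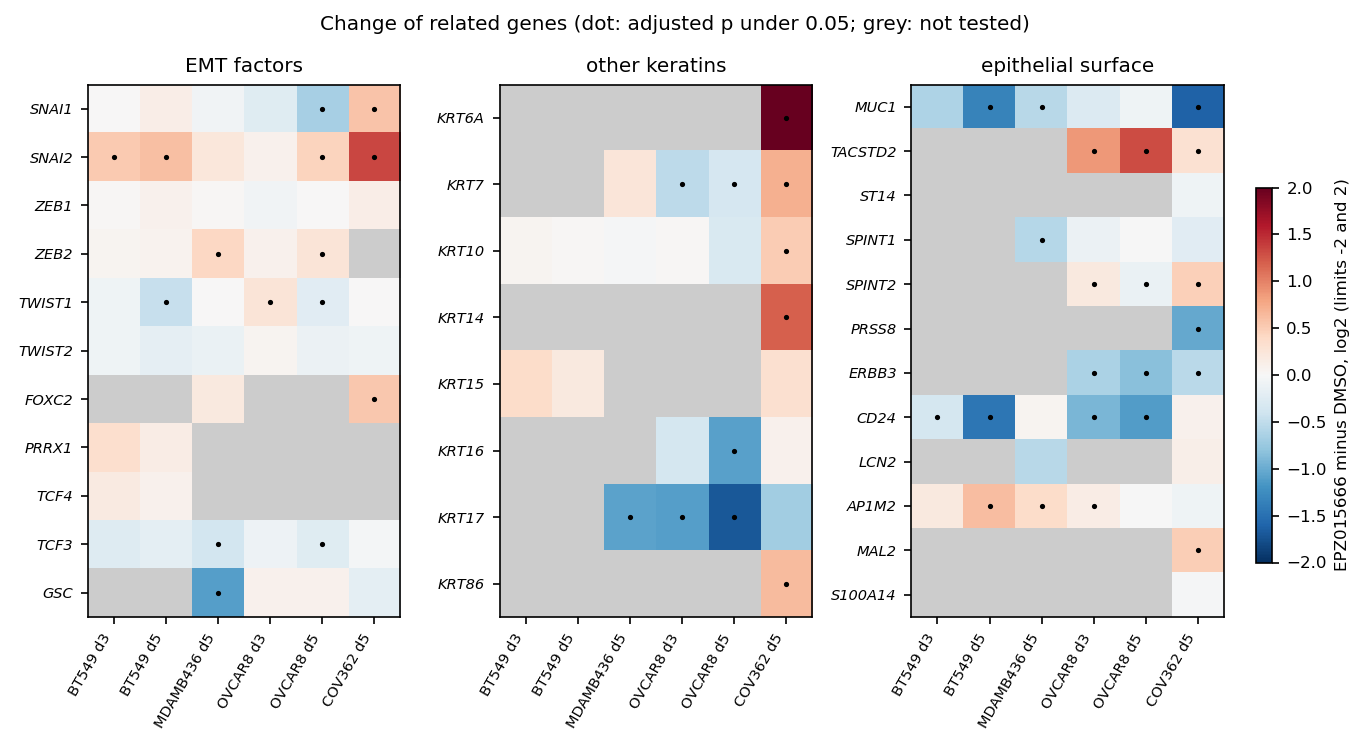
The heat maps give the log2 change, EPZ015666 minus DMSO, of 3 lists of related genes (rows) in the 6 drug comparisons (columns), with a dot where the adjusted p was under 0.05 and grey where the gene was not tested. The keratin column of COV362 is mostly red and those of OVCAR8 mostly blue, and SNAI2 is the reddest of the transcription factors.

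Over the 12 group means of log2(RPKM + 0.1), which share lines and therefore are not independent points, SNAI2 and TAGLN followed each other closely (Pearson r = 0.99), as did KRT8 and KRT18 (r = 0.99). A pair commonly read as opposite, CDH2 and EPCAM, went together (r = 0.86), while CDH2 ran against SNAI2 (r = -0.8) and TAGLN (r = -0.84). VIM had an r of 0.04 with KRT8 and -0.1 with CDH2. Among 3453 genes searched, the patterns most like SNAI2 were those of UAP1 (r = 0.991), SARAF (r = 0.987) and TAGLN (r = 0.986). Those most like KRT8 were its copy KRT8P10 (r = 0.998), DSP (r = 0.996) and RPS13 (r = 0.994). For EPCAM the closest was TINAGL1 (r = 0.995), for KRT18 MEMO1P1 (r = 0.989), for KRT19 CDH6 (r = 0.99), for VIM BTG1 (r = 0.984), for FN1 RIPOR1 (r = 0.985) and for CDH2 ITPRID2 (r = 0.969). With 4 lines setting most of the spread, these are descriptions of line patterns.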

How the data were processed

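RNA-seq values of 24 libraries were used as the RPKM the authors deposited for 16591 genes; the counter was featureCounts and the build GRCh38, per the submitters' processing notes. For the aligner, versions and strand setting, nothing is stated in these sources. The values fitted whole reads per gene span of GENCODE release 29 for 100% of nonzero values under 1000 reads (within 0.02 read), and reads were recovered for 16559 genes. The test was limma 3.58.1 in R 4.3.3 (trend) on log2(RPKM + 0.1), for genes with a mean of at least 0.1 RPKM, with Benjamini-Hochberg adjustment over all genes tested, in 18 comparisons. Drug and day comparisons were fitted within a line, line comparisons over the 16 day 5 or 16 BT549 and OVCAR8 libraries, all with 2 libraries a group. Fold changes are ratios of mean RPKM, and log2 changes understate low genes. Alternatives were a pseudocount of 1, no filter, a mean of at least 1 RPKM, median-of-ratios scaling, a block for the library letter, limma-voom on recovered reads and leaving out each library. Scripts were tested on simulated data. The 10 genes, the lists and the tests were chosen with earlier results of these data known. All 10 genes were to be named whatever they showed, with up to 3 genes of a list by smallest adjusted p and the 3 most similar patterns. Genes of a list named outside this rule (DSP in OVCAR8, CLDN1 across comparisons, KRT8P12) were singled out after their values were seen. The result of 1 list is not reported here.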

Additional observations from a re-analysis of the deposited data

Results flagged for a closer look

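The drug effect at day 5 differed between the 4 lines, by the F test of limma, for KRT8 (adjusted p = 1.11e-05), FN1 (9.76e-05), VIM (0.000204), KRT18 (0.000217), CDH2 (0.000338), SNAI2 (0.00158), TAGLN (0.00314) and EPCAM (0.0251). For KRT8 and EPCAM the fit holds lines with a level near 0. The drug effect at day 3 differed between BT549 and OVCAR8 for TAGLN (adjusted p = 0.00682), VIM (0.0287) and KRT8 (0.00483), the last at a BT549 level (0.0247 and 0.0456 RPKM) below the filter of 0.1 RPKM.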

How the results depend on the processing

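Counts of the 9 genes past the threshold stayed within 1.5 times under a pseudocount of 1 and median-of-ratios scaling, which still ended or added single calls, and went beyond it in some comparisons under each other setting. With limma-voom the day difference of the drug effect gave 3 genes in BT549 and 2 in OVCAR8, and vehicle OVCAR8 day 5 against day 3 gave 3. With a mean of at least 1 RPKM, 1 gene passed for the OVCAR8 day difference and 1 for OVCAR8 at day 3. Without a filter 1 passed in MDAMB436 and 1 in OVCAR8 at day 3. Leaving out each library, where a lone library is assumed to vary like the other groups, gave 5 to 5 genes in COV362, 0 to 0 in MDAMB436, 2 to 5 in OVCAR8 at day 5, 0 to 2 in OVCAR8 at day 3, 0 to 1 in vehicle OVCAR8 and 0 to 1 in vehicle BT549.

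The labels do not say whether the library letters pair the samples. Deviations of same-lettered libraries correlated between -0.32 and 0.18, which cannot decide it with 2 libraries a group. With the letter as a replicate block 0 genes passed in MDAMB436 and 1 in OVCAR8 at day 3, and over all genes the counts went from 2994 to 0 in MDAMB436, 1555 to 1009 in BT549 at day 3, 1071 to 478 in vehicle BT549, 1160 to 770 for the day 3 line difference, and 100 to 15 and 122 to 0 for the day differences in BT549 and OVCAR8 (2330 and 2790 at an unadjusted p under 0.05, and 4638 in MDAMB436). Of single calls the block ended those of VIM (adjusted p = 0.0782) and KRT8 (0.0754) in MDAMB436, SNAI2 in OVCAR8 at day 5 (0.0627), EPCAM in OVCAR8 at day 3 (0.076), in COV362 (0.0568) and between the 4 lines (0.0991), VIM between COV362 and BT549 (0.107) or OVCAR8 (0.0565) and for the day 3 line difference (0.0685), and CDH2 between MDAMB436 and OVCAR8 (0.133); it ended no other call. Limma-voom gave 5839, 3017, 2621, 1472 and 1693 genes in MDAMB436, BT549 at day 3, vehicle BT549 and the 2 day differences, and median-of-ratios scaling gave 55 for OVCAR8. A mean of at least 1 RPKM tested fewer genes and gave 366 and 461 for the 2 day differences, 4461 in COV362 (7116 before), 3563 in OVCAR8 at day 5 (5632), 729 for the day 3 line difference and 5003 for the 4 lines (8578). Between vehicle lines it gave 5561 to 5743 genes, against 10486 to 10901.

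Directions turned in changes that did not pass. TAGLN in COV362 was 0.00 with a pseudocount of 1, VIM between BT549 and OVCAR8 was -0.03 with median-of-ratios scaling and -0.07 with voom, and TAGLN between MDAMB436 and COV362 was 0.09 with the block and 0.01 with voom. Without 1 library the ranges were -0.06 to 0.02 for CDH2, -0.07 to 0.09 for FN1 and 0.00 to 0.16 for TAGLN in MDAMB436, -0.17 to 0.17 for TAGLN in COV362, -0.04 to 0.07 for KRT18 at day 3 and -0.28 to 0.03 for KRT19 at day 5 in BT549, 0.00 to 0.18 for SNAI2 in OVCAR8 at day 3, -0.34 to 0.09 for KRT19 between MDAMB436 and OVCAR8, and -0.09 to 0.07 for TAGLN between MDAMB436 and COV362. The causes were not tested.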
